A study of Mus musculus with 15 samples.

Results

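RNA levels of 32 genes of fatty acid oxidation were followed in tumor-associated macrophages (TAMs), the macrophages that accumulate inside a tumor. The genes were picked by symbol, as enzymes, carriers and regulators of the pathway, and they are 32 of the 55335 genes in the expression table. The TAMs came from mice of the C57BL/6 strain that carried an orthotopic hepatocellular carcinoma (HCC), grown in the liver from injected Hepa1-6 cells, a mouse hepatoma line, and were sorted by flow cytometry on the surface proteins CD11b and F4/80 before RNA-seq. The 15 samples fall into 3 groups of 5: TAMs from control HCC, from HCC with miR-144 overexpression and from HCC with miR-451a overexpression. In both microRNA groups lentivirus carried the microRNA into the tumor cells and not into the macrophages, so each group is a model of TAMs in an altered tumor, made from 1 hepatoma line. For this tumor model the paper describes Hepa1-6 cells that expressed luciferase, with a control lentivirus given to the control cells. Age and sex of the mice are not given in the sources used here. The comparisons ask whether the tumor's microRNA changed expression of the pathway in its TAMs and whether the 2 microRNAs differed in this.

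Fatty acids are oxidized after acyl-CoA synthetases attach them to coenzyme A and the carnitine shuttle carries the long chains into the mitochondrion. There each turn of the spiral removes a 2-carbon unit by dehydrogenation, hydration, renewed dehydrogenation and thiolysis, and the electrons taken by the acyl-CoA dehydrogenases pass through the electron transfer flavoprotein (ETF) to ubiquinone. Peroxisomes shorten very long and branched chains with enzymes of their own. Transcription of these genes is driven in many tissues by the nuclear receptors PPARα, PPARδ and PPARγ with the PGC-1 coactivators, and in macrophages the pathway is best known from alternatively activated cells.

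Both microRNAs are processed from neighbouring hairpins on mouse chromosome 11. Their mature sequences, taken from RefSeq on build GRCm38.p6, are shown because they define the groups, with the seed (bases 2 to 8) in capitals. The 3 seeds differ from each other.
mmu-miR-144-5p (chr11:78073010-78073032, plus strand): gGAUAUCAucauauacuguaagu
mmu-miR-144-3p (chr11:78073047-78073066, plus strand): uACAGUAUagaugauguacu
mmu-miR-451a (chr11:78073186-78073207, plus strand): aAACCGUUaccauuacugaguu

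Levels are in FPKM, which is already divided by transcript length and by library size. The steps between low values implied about 15500000 to 30400000 fragments per library, but too few values fell on a step to recover counts. Pearson's r between log2 values of 2 libraries of a group, across genes, was 0.9818 to 0.9926, and was not compared with that between groups. Single genes could still differ between libraries of a group, as did Cd5l, at 16.4 to 48.9 FPKM with miR-144. Macrophage genes dominated in every sample, with Lyz2 at a mean of 6894, 13171 and 12581 FPKM in control, miR-144 and miR-451a TAMs. The summed level of 8 macrophage genes was 8688 to 9504, 14812 to 16758 and 14492 to 15748 FPKM. Cd68 was the only one of them to fall, from 1444 to 919 and 910 FPKM (log2 fold change -0.65 and -0.67). The others were called higher in both comparisons, among them Fcgr1 (log2 fold change 2.69 and 2.64), Cd14 (2.55 and 2.51) and Csf1r (0.78 and 0.79). Adgre1, which encodes F4/80, rose from 137 to 361 and 354 FPKM, and the symbol Itgam, for CD11b, has 2 rows in the table and is uncertain. Of 11 hepatocyte genes, which matter here because hepatocytes oxidize fat strongly, 8 to 9 per group were listed at 0 in all 5 samples, Alb, Apoa1, Apoc3 and Ttr among them, and their summed level was 2.94 to 3.82, 2.27 to 3.84 and 2.02 to 3.29 FPKM. Several marker lists of other cells moved with the groups. The summed level of 8 endothelial and stellate cell genes was 101 to 125 in control, 136 to 195 in miR-144 and 172 to 215 FPKM in miR-451a samples, mostly Col1a1 and Col1a2, with Lrat listed at 0 in all 15. That of 8 neutrophil genes was 78.7 to 95.9, 50.3 to 56.3 and 48.5 to 57.2 FPKM, mostly Csf3r, with Retnlg listed at 0. That of 6 Kupffer cell genes was 3.44 to 3.96, 17.5 to 50.4 and 16.2 to 47.6 FPKM, nearly all Cd5l, with Clec4f listed at 0. That of 10 T and NK cell genes was 1.53 to 1.92, 5.77 to 8.97 and 5.45 to 9.57 FPKM, mostly Cd4, with Cd3e and Cd3g listed at 0. That of 5 B cell genes was 0.138 to 0.379, 1.11 to 1.45 and 1.18 to 1.75 FPKM, mostly Cd79b. That of 6 dendritic cell genes was 0.281 to 0.420, 0.473 to 0.682 and 0.401 to 0.747 FPKM. That of 5 eosinophil genes was 2.43 to 2.98, 0.839 to 0.990 and 0.615 to 1.08 FPKM, with Prg2 listed at 0. Of these, Siglecf went from 2.26 to 0.357 and 0.355 FPKM, while Ccr3 went from 0.437 to 0.559 and 0.480 FPKM. The part of these cells in the results below was not tested. Hepatoma and erythroid genes summed to at most 1.79 and 0.141 FPKM in any sample, and 5 cycling cell genes to 10.5 to 15.7 FPKM. Of the cycling genes, Mki67 (log2 fold change -0.44 and -0.32) and Ccnb1 (-0.41 and -0.24) were called lower, and Top2a (0.18 and 0.26) and Cdk1 (0.29 and 0.38) higher.

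Of the 32 genes, 29 had a mean of at least 1 FPKM and were tested, and all 29 reached 1 FPKM in each of the 3 group means. In TAMs from miR-144 HCC, 6 rose and 15 fell (limma on log2(FPKM + 1), adjusted p under 0.05), while over all 11419 genes tested 47.1% rose and 20.1% fell. In TAMs from miR-451a HCC, 6 rose and 16 fell, against 48.1% and 20.3% of all genes. The median log2 fold change of the 29 was -0.13 and -0.12, and that of all tested genes 0.13 and 0.14. The same 5 control samples serve both comparisons. The groups did not overlap for 19 of the 29 genes in either comparison, against 53.9% and 55.2% of all genes. Centring each sample on its median, which takes away the shift of all genes, gave 4 higher and 20 lower for miR-144 and 4 and 18 for miR-451a, and rescaling to TPM gave 7 and 13, and 8 and 11. The centring lowered the log2 fold change of every gene by the same amount, so the median of the 29 became -0.27 and -0.26, and the small fold changes of Cpt1a, Eci2, Acaa1a, Acadm, Acaa2, Acox3, Hsd17b4, Acsl4 and Acsl5 in both comparisons, of Hadh and Acat1 with miR-144 and of Slc25a20 with miR-451a moved by more than 1.5 times. In all genes the calls were 70.1% and 70.3% higher at first, 50% and 49.6% after centring and 76.5% and 77.3% in TPM. In bulk RNA, fewer cells of a type and less RNA per cell cannot be told apart.

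The 6 genes that rose with both microRNAs were Cpt1a, Hadh, Eci2, Acaa1a, Acat1 and Ppard, and the 15 that fell with both were Acadm, Acadl, Hadha, Hadhb, Echs1, Etfa, Etfb, Etfdh, Acaa2, Acox3, Hsd17b4, Acsl3, Acsl4, Acsl5 and Ppargc1b. Slc25a20 was called lower than control with miR-451a and not with miR-144. The 7 genes without a call in either comparison were Cpt2, Acadvl, Acads, Acadsb, Eci1, Decr1 and Acsl1. Summed over the 32 genes, the mean level was 456 ± 4.48 FPKM for control, 396 ± 6.41 for miR-144 and 397 ± 6.90 for miR-451a TAMs (SD, n = 5). The control samples summed to 453 to 464 FPKM, above all 10 samples of the microRNA groups, which lay at 387 to 405.

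**Figure D1:**
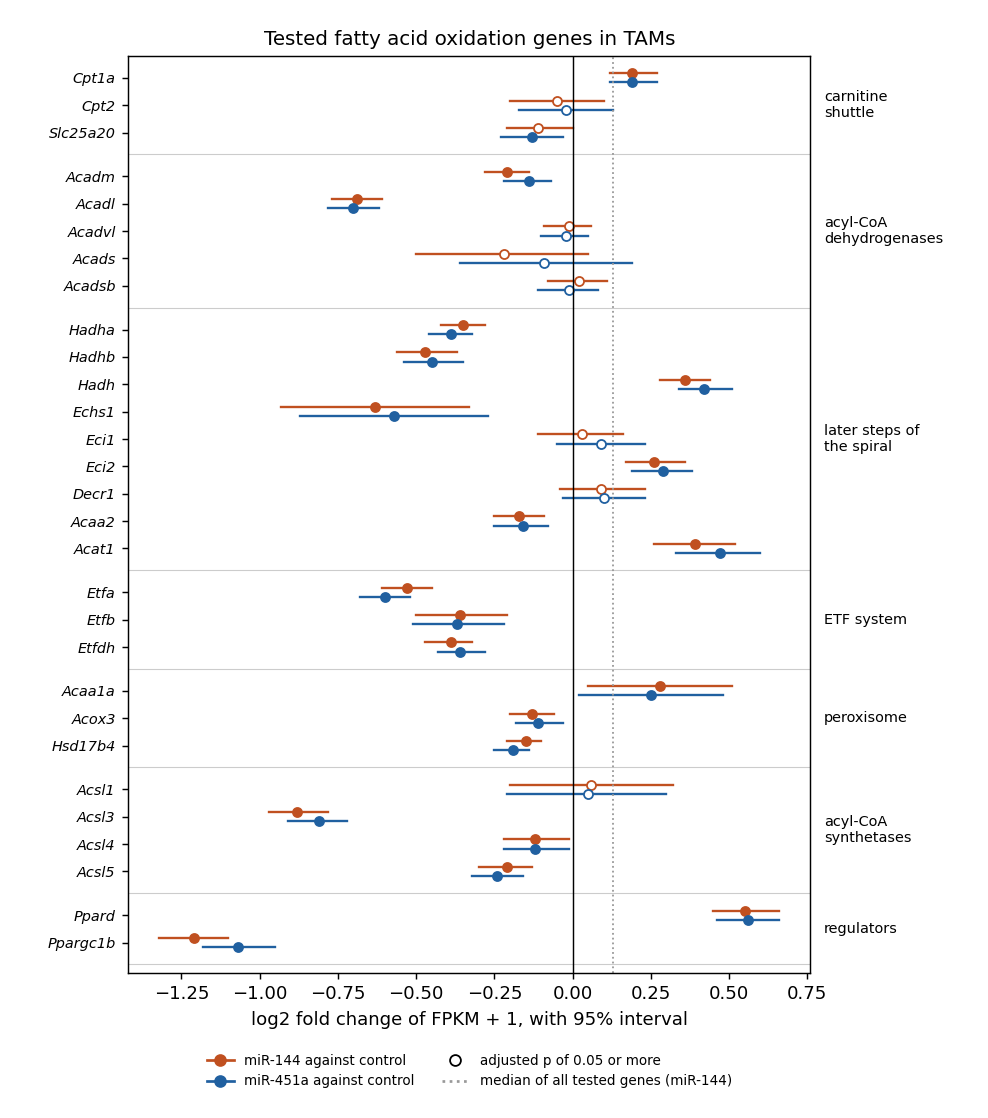
Fold changes of the 29 tested genes, grouped by role, with the log2 fold change of FPKM + 1 against control on the x axis. Points are limma estimates, lines their 95% intervals, open points have an adjusted p of 0.05 or more, and the dotted line marks the median of all tested genes with miR-144 (0.13). Ppargc1b, Acsl3, Acadl, Echs1, Etfa and Hadhb lie farthest to the left with both microRNAs, and Hadh, Acat1 and Ppard to the right.

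Of the 3 tested genes for the entry of long-chain fatty acids into mitochondria, 1 was called higher with both microRNAs and 1 lower with miR-451a. The shares of all genes were 47.1% and 48.1% higher and 20.1% and 20.3% lower. Cpt1a (chr19:3322334-3385733), the liver-type carnitine palmitoyltransferase that limits the rate of entry, stood at 18.4, 16.8, 17.6, 17.7 and 17.0 FPKM in control TAMs, at 19.8, 19.6, 20.8, 20.8 and 19.9 with miR-144 and at 18.7, 20.5, 20.7, 20.8 and 20.1 with miR-451a. Every sample of the microRNA groups was above every control. The log2 fold change was 0.19 in both comparisons, with 95% intervals of 0.12 to 0.27 (limma, adjusted p = 0.000165 and 0.000167). This rise was near the shift of all genes, and after median centring it was 0.06 and 0.05 and no longer called (adjusted p = 0.197 and 0.296). Cpt2, the partner enzyme on the inner membrane, ranged over the 15 samples from 6.27 to 8.43 FPKM, and its intervals were -0.20 to 0.10 and -0.17 to 0.13. With miR-144, Cpt2 was called lower under median centring and quantile normalization (-0.18 in both, adjusted p = 0.0417 and 0.0396). Slc25a20, the carrier that swaps acylcarnitine for carnitine, had means of 6.16, 5.65 and 5.54 FPKM, and its log2 fold changes were -0.11 (adjusted p = 0.0638) and -0.13 (adjusted p = 0.0259). The miR-451a call for Slc25a20 was lost when control replicate 1, control replicate 4, miR-451a replicate 3 or miR-451a replicate 4 was left out (log2 fold change -0.12 to -0.10, adjusted p = 0.0550 to 0.0729), and a miR-144 call appeared without control replicate 3 (-0.15, adjusted p = 0.00662). Slc25a20 was also called lower with miR-144 under median centring (-0.24, adjusted p = 0.000299), quantile normalization (-0.24, adjusted p = 0.000252) and a replicate block (-0.11, adjusted p = 0.0420). In TPM the miR-451a call of Slc25a20 was lost (-0.07, adjusted p = 0.313). The muscle-type isoform Cpt1b was under the 1 FPKM limit, at means of 0.437, 0.291 and 0.439 FPKM.

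The acyl-CoA dehydrogenases, which start each turn of the spiral and differ in the chain length they accept, did not move together. Acadl (chr1:66830839-66863277), the long-chain enzyme, was at 46.0, 50.1, 46.3, 47.8 and 46.4 FPKM in control TAMs, at 27.4, 27.5, 31.1, 29.6 and 29.7 with miR-144 and at 28.8, 29.9, 28.5, 29.1 and 27.8 with miR-451a. The lowest control sample was far above the highest sample of both other groups. Its mean fell by 38.6% and 39.1%, a log2 fold change of -0.69 (SE 0.04, adjusted p = 3.75e-10) and -0.70 (SE 0.04, adjusted p = 3.00e-10). Acadvl, the very-long-chain enzyme, was instead at 18 to 20.2 FPKM in control, 18.6 to 20.4 with miR-144 and 18.4 to 19.7 with miR-451a TAMs. Those 3 ranges lie on top of each other, and the intervals of its log2 fold change were -0.09 to 0.06 and -0.10 to 0.05. After median centring Acadvl was called lower in both comparisons (-0.15, adjusted p = 0.00207, and -0.17, adjusted p = 0.000678), and under quantile normalization with miR-451a (-0.09, adjusted p = 0.0360). Acadvl shares 42.9% of its exonic bases with Dvl2 on the other strand, and strand use in counting is not given in the sources used here.

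Acadm, the medium-chain enzyme, had means of 17.5 ± 0.569 FPKM in control, 15 ± 0.652 with miR-144 and 15.8 ± 0.478 with miR-451a TAMs (SD, n = 5), and its log2 fold changes were -0.21 (adjusted p = 5.91e-05) and -0.14 (adjusted p = 0.00159). The highest sample with either microRNA, 16.6 FPKM, lay just under the lowest control, 16.8 FPKM. In TPM the miR-451a call of Acadm was lost (log2 fold change -0.07, adjusted p = 0.142). Acads, the short-chain enzyme, spread widely within every group, from 14.8 to 21.2 in control, 12.4 to 18.6 with miR-144 and 12.8 to 19.1 FPKM with miR-451a. No call was made for Acads, and its intervals of -0.50 to 0.05 and -0.36 to 0.19 leave room for changes larger than those of Acadm. Without miR-144 replicate 2, Acads was called lower with miR-144 (log2 fold change -0.32, adjusted p = 0.0258), as it was after median centring (-0.36, adjusted p = 0.0257). Acadsb, the short and branched chain enzyme, was at 3.61 to 4.45 FPKM over all samples with no call, at log2 fold changes of 0.02 and -0.01. Under median centring and quantile normalization Acadsb was called lower with miR-144 (-0.12 in both, adjusted p = 0.0277 and 0.0262) and with miR-451a (-0.16 in both, adjusted p = 0.00513 and 0.00456). Within a sample, the ratio of Acadl to Acadvl was 2.44 ± 0.146 in control TAMs (SD, n = 5) and 1.51 with both microRNAs (SD 0.0923 and 0.0401).

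**Figure D2:**
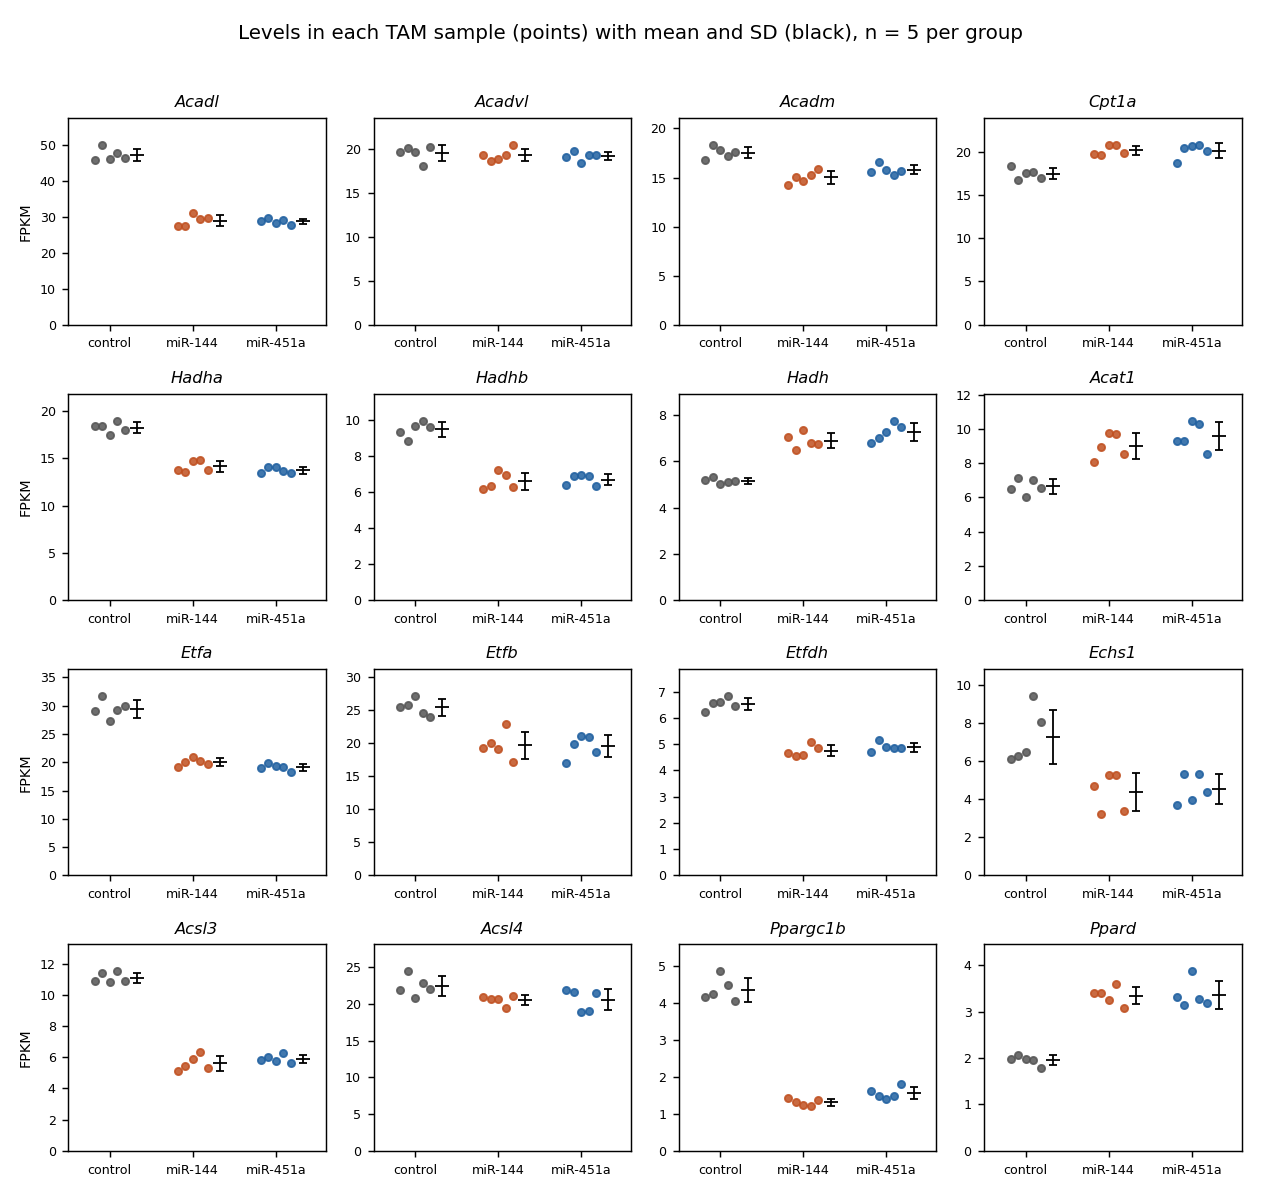
FPKM of 16 of the genes in each TAM sample, on y axes that start at 0, with the 3 groups on the x axis and the mean and SD (n = 5) in black beside the points. Acadl, Etfa, Acsl3 and Ppargc1b in both microRNA groups lie wholly below the control samples, Hadh, Acat1 and Ppard wholly above them, and Acadvl shows no separation.

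The mitochondrial trifunctional protein, which carries out the last 3 steps of the spiral on long chains, is built from the α subunit Hadha and the β subunit Hadhb, and both fell. Hadha was at 18.4, 18.4, 17.5, 19 and 18 FPKM in control TAMs, at 13.8, 13.6, 14.7, 14.8 and 13.8 with miR-144 and at 13.4, 14.1, 14.1, 13.7 and 13.4 with miR-451a. Hadhb was at 9.35, 8.81, 9.66, 9.96 and 9.60 FPKM in control TAMs, at 6.15, 6.34, 7.22, 6.92 and 6.26 with miR-144 and at 6.40, 6.87, 6.95, 6.89 and 6.33 with miR-451a. For both subunits the microRNA groups were entirely below the controls. The log2 fold changes of Hadha were -0.35 (SE 0.03, adjusted p = 1.70e-07) and -0.39 (SE 0.03, adjusted p = 4.56e-08), and those of Hadhb were -0.47 (SE 0.04, adjusted p = 2.44e-07) and -0.45 (SE 0.04, adjusted p = 4.03e-07). The ratio of Hadha to Hadhb within a sample was 1.93 ± 0.108 in control TAMs, 2.15 ± 0.0733 with miR-144 and 2.05 ± 0.0540 with miR-451a (SD, n = 5), over a range of 1.81 to 2.24 with overlapping groups.

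The genes of the 2 subunits lie head to head on chromosome 5, Hadha at chr5:30118304-30155162 on the minus strand and Hadhb at chr5:30155248-30184593 on the plus strand (GENCODE M21, GRCm38). Their RefSeq start sites (GRCm38.p6) are 272 bases apart, and the 300-base promoter windows, 250 bases before to 50 after a start site, share 228 bases. The shared stretch is shown, within the Hadhb window, because both genes that face it fell. The window holds 24 CG steps against a median of 7 over all 32851 RefSeq promoters of this length, and 60.7% G and C against a median of 52.7%. No base of it matched the elements searched for below, so none is in capitals.
Hadhb promoter window (chr5:30155003-30155302, plus strand): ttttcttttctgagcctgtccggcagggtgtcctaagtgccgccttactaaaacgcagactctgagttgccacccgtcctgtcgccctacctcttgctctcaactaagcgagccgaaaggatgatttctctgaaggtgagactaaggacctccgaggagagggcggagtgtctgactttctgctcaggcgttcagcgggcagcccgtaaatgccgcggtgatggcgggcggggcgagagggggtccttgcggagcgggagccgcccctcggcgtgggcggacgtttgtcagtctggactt

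The separate enzymes that take over these steps on shorter chains went in opposite directions. Hadh, the short-chain 3-hydroxyacyl-CoA dehydrogenase, was at 5.17, 5.33, 5.0, 5.10 and 5.13 FPKM in control TAMs, at 7.06, 6.49, 7.34, 6.80 and 6.76 with miR-144 and at 6.77, 6.99, 7.26, 7.76 and 7.47 with miR-451a. All 10 samples with a microRNA exceeded the 5 tight controls, and the log2 fold changes were 0.36 (SE 0.04, adjusted p = 7.43e-07) and 0.42 (SE 0.04, adjusted p = 1.08e-07). Under quantile normalization those of Hadh were 0.22 and 0.27 and still called (adjusted p = 0.000226 and 2.69e-05). Acat1, the thiolase that splits acetoacetyl-CoA and also works in ketone body use, was at 6.49, 7.13, 6.01, 7.03 and 6.58 FPKM in control TAMs, at 8.07, 8.97, 9.76, 9.74 and 8.55 with miR-144 and at 9.28, 9.31, 10.5, 10.3 and 8.53 with miR-451a. Again no control reached the lowest sample of the other groups, and the mean was 1.36 and 1.44 times that of control (log2 fold change 0.39 and 0.47, adjusted p = 5.44e-05 and 8.27e-06).

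Echs1, the short-chain enoyl-CoA hydratase, fell but varied more between samples than its neighbours in the pathway. It was at 6.11, 6.28, 6.49, 9.42 and 8.07 FPKM in control TAMs, at 4.68, 3.20, 5.25, 5.26 and 3.39 with miR-144 and at 3.70, 5.32, 3.96, 5.35 and 4.37 with miR-451a. Control replicates 4 and 5 were the high ones, yet even the lowest control was above every sample with a microRNA. The log2 fold changes of Echs1 were -0.63 (SE 0.14, adjusted p = 0.00103) and -0.57 (SE 0.14, adjusted p = 0.00209), with intervals as wide as -0.93 to -0.33 and -0.87 to -0.27. Acaa2, the mitochondrial 3-ketoacyl-CoA thiolase, fell from 31.2 ± 1.41 to 27.7 ± 1.04 and 27.7 ± 1.10 FPKM (SD, n = 5). Its log2 fold changes were -0.17 and -0.16 (adjusted p = 0.00124 and 0.00130), and its highest sample with a microRNA, 28.7, stayed under the lowest control, 29.6 FPKM. In TPM the miR-451a call of Acaa2 was lost (-0.09, adjusted p = 0.0772) and the miR-144 value was -0.10 (adjusted p = 0.0441).

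The auxiliary enzymes handle unsaturated chains. Eci2, an enoyl-CoA isomerase found in mitochondria and peroxisomes, rose from 2.93 ± 0.220 FPKM in control to 3.72 ± 0.160 with miR-144 and 3.80 ± 0.195 with miR-451a TAMs (SD, n = 5, log2 fold change 0.26 and 0.29, adjusted p = 8.49e-05 and 3.41e-05). Its highest control, 3.15 FPKM, was below the lowest microRNA sample, 3.54 FPKM. Under quantile normalization the log2 fold changes of Eci2 were 0.11 and 0.12 and still called (adjusted p = 0.0474 and 0.0311). Eci1, the mitochondrial isomerase, had means of 4.15, 4.26 and 4.50 FPKM, and Decr1, the 2,4-dienoyl-CoA reductase, means of 4.89, 5.27 and 5.30 FPKM. Neither was called, with intervals of -0.11 to 0.16 and -0.05 to 0.23 for Eci1 and -0.04 to 0.23 and -0.03 to 0.23 for Decr1. In TPM, Decr1 was called higher in both comparisons (0.17 and 0.19, adjusted p = 0.0331 and 0.0194) and Eci1 with miR-451a (0.18, adjusted p = 0.0304). Together, of the 9 tested genes that act after the acyl-CoA dehydrogenases, 3 rose and 4 fell with each microRNA. Over all genes, 47.1% and 48.1% rose and 20.1% and 20.3% fell.

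Because Hadh and Acat1 rose while Hadha and Hadhb fell, their balance within a sample moved further than any of their levels. These pairs were chosen after their values were seen and serve only as a description. The ratio of Hadh to Hadha was 0.282 ± 0.00803 in control TAMs, 0.487 ± 0.0211 with miR-144 and 0.529 ± 0.0309 with miR-451a (SD, n = 5). The ratio of Acat1 to Hadhb was 0.703 ± 0.0674, 1.37 ± 0.0422 and 1.43 ± 0.0751. A ratio of 2 genes in 1 library does not change when all values of the library are multiplied by 1 factor, as in TPM.

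**Figure D3:**
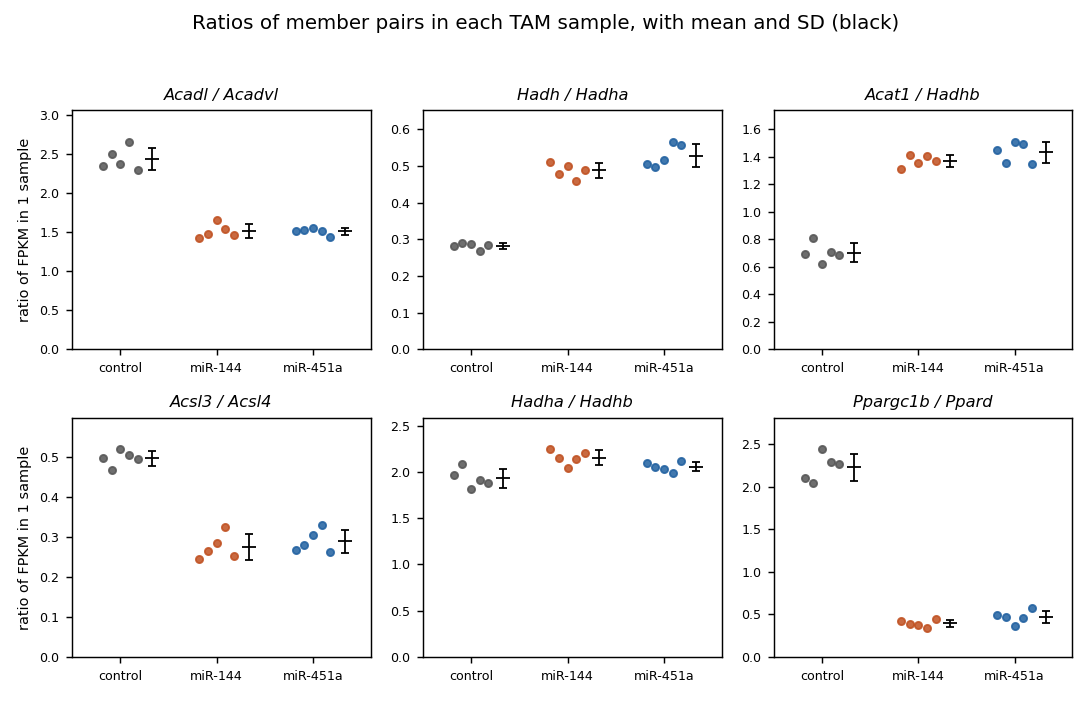
Ratios of FPKM between 2 genes in the same TAM sample, for 6 pairs chosen after their values were seen, on y axes that start at 0, with the 3 groups on the x axis and the mean and SD (n = 5) in black. Hadh to Hadha and Acat1 to Hadhb are higher, and Acadl to Acadvl, Acsl3 to Acsl4 and Ppargc1b to Ppard lower, in all 10 samples of the microRNA groups than in any control, whereas the ratio of Hadha to Hadhb, at group means of 1.93, 2.15 and 2.05, overlaps between groups.

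The ETF system, which takes the electrons of every acyl-CoA dehydrogenase, was the only one of the 7 roles in which all tested genes fell in both comparisons. It holds only 3 genes, and 20.1% and 20.3% of all genes fell. Etfa (chr9:55454508-55512243), the α subunit, was at 29.1, 31.7, 27.3, 29.3 and 29.9 FPKM in control TAMs, at 19.2, 20, 21, 20.3 and 19.7 with miR-144 and at 18.9, 19.8, 19.4, 19.2 and 18.2 with miR-451a. Its microRNA samples were all far below the controls and close to each other. The mean of Etfa fell by 32% and 35.2% (log2 fold change -0.53 and -0.60, SE 0.04 in both, adjusted p = 7.09e-09 and 1.70e-09). Etfdh, the dehydrogenase that hands the electrons on to ubiquinone, was at 6.22, 6.59, 6.62, 6.84 and 6.45 FPKM in control TAMs, at 4.67, 4.56, 4.60, 5.10 and 4.84 with miR-144 and at 4.69, 5.15, 4.91, 4.84 and 4.84 with miR-451a. For Etfdh, too, no microRNA sample overlapped the controls (log2 fold change -0.39 and -0.36, adjusted p = 1.05e-07 and 2.71e-07).

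Etfb (chr7:43444083-43457800), the β subunit, had means of 25.4 ± 1.22 FPKM in control, 19.6 ± 2.07 with miR-144 and 19.5 ± 1.67 with miR-451a TAMs (SD, n = 5), and its log2 fold changes were -0.36 and -0.37 (adjusted p = 0.000296 and 0.000231). The highest microRNA sample of Etfb, 22.8 FPKM, lay below the lowest control, 23.9 FPKM. The overlapping gene model Gm45233 on the same strand holds 67.3% of its 50-base stretches, so reads could have been split between them and the level of Etfb is uncertain. Summed over Etfa, Etfb and Etfdh, the level was 60.3 to 64.0 in control, 41.6 to 48.3 with miR-144 and 40.7 to 45.4 FPKM with miR-451a.

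Promoters of these genes were searched because many of them moved together and PPARs bind, with the retinoid X receptor, to repeats of the element AGGTCA with 1 base between the copies. RefSeq promoter windows were found for 27 of the 32 genes, as 28 windows; those of Decr1, Acaa2, Acat1, Hsd17b4 and Ppargc1b were not found. The element AGGTCA was present on either strand in 4 of the 28 windows (Cpt1a, Acadm, Acadvl and Echs1) and in 16.3% of the 32851 windows of all genes. The longer element TCAAGGTCA, which contains it and is the site of estrogen-related receptors, was in 0 of 28 and in 0.423% of all windows. The direct repeat, 2 copies of AGGTCA with any 1 base between and at most 2 mismatches in the 12 fixed letters, was in 3 of 28 windows and in 3.86% of all. These 3 were Echs1, Etfa and Slc25a20, and in Echs1 the repeat overlaps the exact AGGTCA. The windows of Echs1 and Etfa are shown as those of genes that fell with both microRNAs and hold such a stretch, with the matched 13 bases in capitals, starting 83 bases before the start site in Echs1 and 77 bases before it, as the complement, in Etfa. A match in letters is no proof of a bound site.
Echs1 promoter window (chr7:140116372-140116671, minus strand): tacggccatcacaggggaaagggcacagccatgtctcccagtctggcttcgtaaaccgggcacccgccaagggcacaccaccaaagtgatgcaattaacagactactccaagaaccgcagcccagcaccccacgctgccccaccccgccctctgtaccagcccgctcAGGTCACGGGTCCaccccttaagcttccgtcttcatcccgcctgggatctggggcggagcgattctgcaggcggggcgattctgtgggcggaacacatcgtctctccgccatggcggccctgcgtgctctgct
Etfa promoter window (chr9:55512194-55512493, minus strand): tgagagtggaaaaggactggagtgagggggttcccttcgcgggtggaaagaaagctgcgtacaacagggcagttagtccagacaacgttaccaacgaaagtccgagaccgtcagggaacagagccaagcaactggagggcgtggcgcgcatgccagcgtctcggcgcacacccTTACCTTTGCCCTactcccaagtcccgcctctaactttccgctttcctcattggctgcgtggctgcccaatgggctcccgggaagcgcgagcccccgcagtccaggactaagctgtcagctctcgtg

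Among the acyl-CoA synthetases, which activate long-chain fatty acids before any use, oxidation or lipid synthesis, 3 of 4 fell. Of all genes, 20.1% and 20.3% fell, and 1 of the 3, Acsl4, lost its calls in 10 and 11 of 24 alternatives. Acsl3, which is known for its place on the endoplasmic reticulum and on lipid droplets, was at 10.9, 11.4, 10.8, 11.5 and 10.9 FPKM in control TAMs, at 5.10, 5.44, 5.89, 6.31 and 5.34 with miR-144 and at 5.83, 6.03, 5.77, 6.25 and 5.61 with miR-451a. The controls kept within 1 FPKM of each other and far above the rest, and the mean fell by 49.5% and 47.0% (log2 fold change -0.88 and -0.81, SE 0.05, adjusted p = 1.95e-10 and 4.31e-10). Acsl5, a mitochondrial and reticular form, fell from 27.8 ± 0.889 to 23.8 ± 0.860 and 23.4 ± 1.35 FPKM (SD, n = 5), with no overlap with control (log2 fold change -0.21 and -0.24, adjusted p = 0.000218 and 6.61e-05). Acsl4, which prefers arachidonic acid, had means of 22.4 ± 1.34, 20.5 ± 0.654 and 20.5 ± 1.46 FPKM, and its groups overlapped. The call of Acsl4 (log2 fold change -0.12 in both, adjusted p = 0.0435 and 0.0427) was lost on leaving out any of control replicates 1, 2, 4 and 5, miR-144 replicates 2 and 3, for miR-144 also its replicates 1 and 4, and for miR-451a its replicates 3 and 4 (log2 fold change -0.13 to -0.09, adjusted p = 0.0510 to 0.120), and in TPM (-0.05 and -0.04, adjusted p = 0.391 and 0.504). Acsl1, the form most tied to oxidation in muscle and fat, was at 3.20 to 3.65 in control, 2.90 to 4.31 with miR-144 and 2.78 to 4.86 FPKM with miR-451a, with intervals of -0.20 to 0.32 and -0.21 to 0.30. The ratio of Acsl3 to Acsl4 was 0.498 ± 0.0186 in control TAMs and 0.275 ± 0.0324 and 0.289 ± 0.0279 with the microRNAs (SD, n = 5).

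Of the 3 tested peroxisomal enzymes, 2 fell and 1 rose with each microRNA, where 20.1% and 20.3% of all genes fell and 47.1% and 48.1% rose. Hsd17b4, the D-bifunctional protein of peroxisomal oxidation, had the highest level of the 32 genes in every group, and was at 48.9, 50.7, 50.4, 49.6 and 49.7 FPKM in control TAMs, at 44.4, 43.3, 44.0, 45.7 and 46.5 with miR-144 and at 43.3, 43.0, 43.2, 45.1 and 43.0 with miR-451a. All 10 microRNA samples lay under the 5 controls, and the mean fell by 10.2% and 12.7% (log2 fold change -0.15 and -0.19, adjusted p = 8.35e-05 and 8.11e-06). In TPM the log2 fold changes of Hsd17b4 were -0.08 and -0.11 and still called (adjusted p = 0.00953 and 0.00128). Acox3, an oxidase of branched chains, fell from 20.4 ± 0.584 to 18.6 ± 0.723 and 18.9 ± 0.664 FPKM (SD, n = 5), and both log2 fold changes, -0.13 and -0.11, were called (adjusted p = 0.00255 and 0.0107). In TPM neither call of Acox3 held (log2 fold change -0.07 and -0.03, adjusted p = 0.142 and 0.546).

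Acaa1a, the peroxisomal thiolase, had means of 26.5 ± 2.28 FPKM in control, 32.6 ± 4.31 with miR-144 and 32 ± 4.90 with miR-451a TAMs (SD, n = 5). Its groups overlapped, since miR-144 replicate 3 at 26.6 and miR-451a replicates 3 and 4 at 27.9 and 25.6 FPKM lay within the control range of 23.5 to 28.5. Replicates 3 and 4 were the lowest 2 samples of Acaa1a in each group. The call of Acaa1a (log2 fold change 0.28 and 0.25, adjusted p = 0.0298 and 0.0477) was lost on leaving out control replicate 3 or 4 or miR-144 replicate 1, for miR-144 also its replicates 2 and 5, and for miR-451a control replicate 2, miR-144 replicate 4 and its own replicates 1, 2 and 5 (log2 fold change 0.20 to 0.28, adjusted p = 0.0514 to 0.120). Under median centring the fold changes of Acaa1a were 0.15 and 0.11 and not called (adjusted p = 0.241 and 0.385). With a replicate block in the limma fit, both calls of Acaa1a held (adjusted p = 0.000539 and 0.00111). Of its 50-base stretches, 16.2% occur in other genes, mainly the close copy Acaa1b. Ehhadh, the L-bifunctional protein, was under the limit for testing, at 0.620 to 0.826 in control, 0.993 to 1.44 with miR-144 and 0.985 to 1.22 FPKM with miR-451a. Both microRNA ranges lay above that of control, and in a fit without a limit on low values its log2 fold changes were 0.29 and 0.30 (adjusted p = 0.00175 and 0.00154).

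Among the regulators, Ppargc1b had the largest fall and Ppard the largest rise of the 29 tested genes. Ppargc1b, which encodes the coactivator PGC-1β, was at 4.16, 4.23, 4.85, 4.48 and 4.05 FPKM in control TAMs, at 1.44, 1.33, 1.23, 1.21 and 1.37 with miR-144 and at 1.62, 1.49, 1.39, 1.49 and 1.81 with miR-451a. The lowest control was above 4 FPKM and no microRNA sample reached 2 FPKM. The mean of Ppargc1b fell by 69.8% and 64.2%, with log2 fold changes of -1.21 (SE 0.05, adjusted p = 2.45e-11) and -1.07 (SE 0.05, adjusted p = 1.06e-10). With a pseudocount of 0.1 in place of 1, which shrinks low levels less, these were -1.66 and -1.43. Ppard, the receptor PPARδ, was at 1.98, 2.07, 1.99, 1.96 and 1.79 FPKM in control TAMs, at 3.40, 3.40, 3.26, 3.59 and 3.08 with miR-144 and at 3.32, 3.15, 3.87, 3.28 and 3.18 with miR-451a. All microRNA samples were above 3 FPKM and all controls near or below 2 FPKM. Its mean was 1.71 times that of control in both comparisons (log2 fold change 0.55 and 0.56, SE 0.05, adjusted p = 7.41e-08 and 6.49e-08).

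The other two regulators were hardly present. Ppara, the receptor PPARα, was at 0 to 0.0326 in control, 0 to 0.0174 with miR-144 and 0 to 0.0490 FPKM with miR-451a, and Ppargc1a, which encodes PGC-1α, at 0 to 0.0191, 0 to 0.0113 and 0 to 0.0050 FPKM. Every one of these values was at or under what 3 fragments would give at the implied depth, at most 0.0566 FPKM for Ppara and 0.0299 FPKM for Ppargc1a, so no difference in them was detectable. Pparg, the receptor PPARγ and not one of the 32, was the most abundant of the 3 receptors, at 33.5 to 40.5 FPKM in control TAMs, 8.90 to 10.4 with miR-144 and 9.14 to 10.5 with miR-451a (log2 fold change -1.86 and -1.85, adjusted p = 6.65e-13 and 6.19e-13). The ratio of Ppargc1b to Ppard was 2.23 ± 0.158 in control and 0.395 ± 0.0424 and 0.468 ± 0.0754 in the microRNA groups (SD, n = 5).

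TAMs of the 2 microRNA groups were then compared with each other. None of the 29 genes was called (limma, smallest adjusted p = 0.946), no gene's groups were free of overlap against 0.849% of all 11419 genes, and 1 of the 29 had an unadjusted p under 0.05. Of all genes, 0% were called, 596 had an unadjusted p under 0.05 and the smallest adjusted p was 0.0752. The 1 gene was Ppargc1b, at a mean of 1.31 ± 0.0971 with miR-144 and 1.56 ± 0.163 FPKM with miR-451a (SD, n = 5, log2 difference 0.14, 95% interval 0.03 to 0.26, unadjusted p = 0.0159). The differences of the 29 lay between -0.07 and 0.14, with a median of 0.00. The 95% intervals of the difference were narrow for some genes and wide for others: -0.09 to 0.07 for Acadl, -0.11 to 0.03 for Hadha, -0.02 to 0.15 for Hadh and -0.10 to 0.11 for Ppard, but -0.24 to 0.36 for Echs1, -0.26 to 0.20 for Acaa1a and -0.14 to 0.41 for Acads.

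The order of the genes by level, which FPKM allows because it is per transcript length, differed between control and microRNA TAMs in its upper part. Hsd17b4 at 49.8 ± 0.712 and Acadl at 47.3 ± 1.70 FPKM led in control TAMs, followed by Acaa2 at 31.2 ± 1.41, Etfa at 29.5 ± 1.60 and Acsl5 at 27.8 ± 0.889 (SD, n = 5). Hsd17b4 and Acadl overlapped in their samples, as did Acaa2 and Etfa, and Etfa and Acsl5, but Acadl lay wholly above Acaa2. With miR-144, Hsd17b4 at 44.8 ± 1.29 FPKM was followed by Acaa1a at 32.6 ± 4.31 and Acadl at 29 ± 1.59, which overlapped each other, and Acadl had come down to the level of Acaa2 at 27.7 ± 1.04.

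Genes around the pathway, in lists that overlap none of the 32, were counted in the same fit. Among other enzymes of fatty acid oxidation, 17 of 37 tested rose and 10 fell with miR-144 (median log2 fold change 0.06), and 19 rose and 10 fell with miR-451a (median 0.13). This balance turned with the scaling, to 6 higher and 15 lower with miR-144 and 7 and 14 with miR-451a under median centring, and to 7 and 16, and 8 and 14, under quantile normalization. Hsd17b10, a mitochondrial hydroxyacyl-CoA dehydrogenase, fell from 32.1 ± 0.733 to 17.8 ± 1.73 and 16.4 ± 0.929 FPKM, and Abcd2, a peroxisomal importer of very long chains, from 16.8 ± 0.494 to 8.17 ± 0.484 and 8.70 ± 0.681 FPKM. Crot, the peroxisomal carnitine octanoyltransferase, rose from 5.15 ± 0.356 to 8.09 ± 0.0469 and 8.23 ± 0.497 FPKM, and Pex5, the receptor that brings enzymes into peroxisomes, from 8.86 ± 0.974 to 13.2 ± 1.04 and 13.0 ± 0.964 FPKM (SD, n = 5).

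Fatty acid uptake, binding and lipolysis had 4 of 19 tested genes higher and 13 lower with miR-144, and 4 higher and 15 lower with miR-451a, at medians of -0.35 and -0.37. Under median centring 2 and 1 of them were higher, and under quantile normalization 2 and 2, and without control replicate 2 the number higher with miR-451a was 2. Cd36, the scavenger receptor that takes up fatty acids, fell from 200 ± 11.9 to 45.4 ± 5.17 and 41.8 ± 2.19 FPKM, and Fabp4, a fatty acid binding protein, from 119 ± 7.59 to 22.3 ± 1.05 and 19.8 ± 0.638 FPKM. Lipe, the hormone-sensitive lipase, rose from 4.40 ± 0.385 to 6.32 ± 0.483 and 6.71 ± 0.706 FPKM. Fatty acid synthesis had 3 of 16 higher and 10 lower with miR-144 and 2 higher and 11 lower with miR-451a (medians -0.34 and -0.35), led by the desaturases Scd1 (log2 fold change -2.14 and -2.07) and Fads2 (-1.18 and -1.22). The TCA cycle, which burns the acetyl-CoA that the spiral releases, had 3 of 24 higher and 15 lower with miR-144 and 3 higher and 16 lower with miR-451a (medians -0.21 in both), with Idh3a at -0.56 and -0.59 and Mdh2 at -0.50 and -0.50, but Suclg2 at 0.65 and 0.68 and Fh1 at 0.40 and 0.41. The genes called higher in synthesis numbered 1 with each microRNA under median centring and 1 and 0 under quantile normalization, and those in the TCA cycle 5 and 6 in TPM.

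Of 22 tested PPAR partners, co-regulators and target genes, 14 rose and 2 fell in TAMs of miR-144 HCC (median 0.23), and 15 rose and 3 fell in those of miR-451a HCC (median 0.31). Under median centring and quantile normalization, 4 fell with miR-144. Beside Pparg, the oxysterol receptor Nr1h3 fell (-1.03 and -1.19). Pdk4, the kinase that holds back pyruvate dehydrogenase, rose from 1.78 ± 0.339 to 5.75 ± 0.507 and 6.52 ± 0.506 FPKM (log2 fold change 1.28 and 1.44, adjusted p = 1.32e-09 and 3.22e-10), and Txnip, a thioredoxin-binding protein, from 77.0 ± 11.4 to 231 ± 14.5 and 218 ± 48.5 FPKM (SD, n = 5). No test compared one list with another, and each count stands beside the 47.1% and 20.1%, or 48.1% and 20.3%, of all genes.

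**Figure D4:**
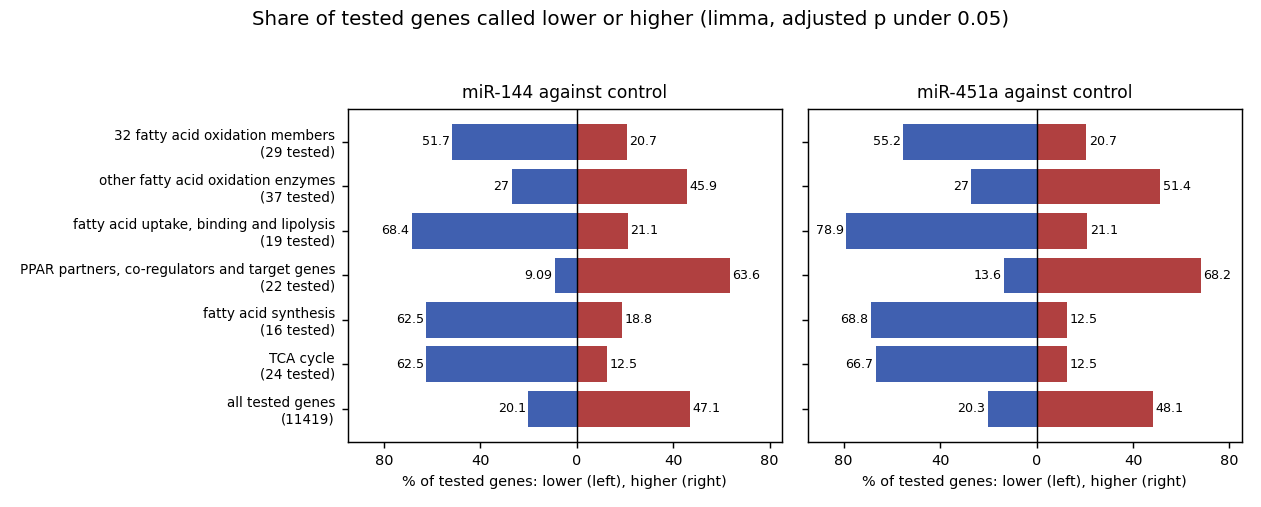
Share of tested genes called lower (bars to the left) and higher (bars to the right) in each comparison with control, in percent of the tested genes of each list, by limma at an adjusted p under 0.05. The 32 fatty acid oxidation genes, uptake and lipolysis, synthesis and the TCA cycle have longer left bars, whereas PPAR partners and all tested genes have longer right bars. Other oxidation enzymes also have longer right bars here, but more of them were called lower than higher under median centring or quantile normalization.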

How the data were processed

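RNA of sorted TAMs was sequenced on the Illumina HiSeq platform. The authors deposited gene-level FPKM for 15 samples, which are scaled to transcript length and library size. The submitters' processing notes name FastQC 0.11.2, STAR and StringTie. The genome build and annotation are not given in the sources used here, and 99.67% of the 55335 gene identifiers were found in GENCODE M21 (GRCm38), the source of the coordinates.

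Values were tested as log2(FPKM + 1) with limma 3.58.1 in R 4.3.3, with the 3 group means in 1 fit, a mean-variance trend, empirical Bayes and p-values adjusted by Benjamini-Hochberg over the 11419 genes whose mean reached 1 FPKM. A count model was not used, since only 43.0 to 60.7% of low values lay within 0.05 of a whole step, itself set from these values. Fold changes on this scale understate those of low genes. The procedure was tested on simulated data in which far fewer genes changed than here. That test had no shift of all genes, so it does not cover this feature of the data. Groups and replicate numbers come from the sample labels. Nothing there says that samples came from separate mice, so p-values measure the spread between these samples. The paper's figure legend gives n = 3 for this RNA-seq, while 5 samples per group are used here. The replicate numbers were not taken to pair the samples: the deviations of same-numbered samples had a mean correlation of 0.076 (-0.0189 for other numbers), and 8 of 15 pairs, not all, were over 0.1. Still, 8 of 15 samples correlated best with a sample of their own number, so a fit with a replicate block is given among the alternatives.

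The 32 genes and all lists were chosen with earlier results of these data known. From each related list, the 2 genes with the largest rise and the 2 with the largest fall, called and without overlap in both comparisons, are named, and Pparg, Cpt1b and Cd36 in any case. A further gene is not reported here. Marker lists covered macrophage, Kupffer cell, hepatocyte, hepatoma cell, neutrophil, T and NK cell, B cell, eosinophil, dendritic cell, endothelial and stellate, erythroid and cycling cells. Alternatives were a pseudocount of 0.1, other limits on low values, median centring, quantile normalization, TPM, a replicate block, no trend, 2-group fits and leaving out each sample. Promoter and microRNA sequences are from RefSeq on GRCm38.p6.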

Additional observations from a re-analysis of the deposited data

Results flagged for a closer look

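In 4 of 87 groups of 5 values (29 genes, 3 groups), 1 sample lay far from the other 4 by Dixon's test at 95%, where chance gives about 4.35. Acadvl was at 18 FPKM in control replicate 4, below the next value of 19.6. Acads was at 21.2 FPKM in control replicate 3, above the next value of 15.9. Hsd17b4 was at 45.1 FPKM in miR-451a replicate 4, above the next value of 43.3. Ppard was at 3.87 FPKM in miR-451a replicate 3, above the next value of 3.32.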

How the results depend on the processing

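Of the 29 tested genes, 19 stayed on the same side of the threshold with miR-144 and 18 with miR-451a under all alternatives run, though among them the uncalled Eci1 and Acsl1 with miR-144 and Cpt2 and Acsl1 with miR-451a changed sign. Acadsb turned from 0.02 to -0.12 with miR-144 under median centring (adjusted p = 0.0277) and to -0.12 under quantile normalization (adjusted p = 0.0262), where the scaling takes the shift of all genes out. With a replicate block, 6 genes rose and 16 fell in both comparisons, Slc25a20 being added for miR-144 (-0.11, adjusted p = 0.0420), Acaa1a at adjusted p = 0.000539 and 0.00111, and 8 of 15 samples correlated best with a sample of their own number. Quantile normalization gave 5 higher and 18 lower in both, Cpt2 with miR-144, Acadvl with miR-451a and Acadsb in both among those lower. Decr1 in both comparisons and Eci1 with miR-451a were called higher in TPM only, and under median centring Cpt2, Acads and Slc25a20 with miR-144, Acadsb with miR-451a and Acadvl in both were called lower. Besides the samples named above, Acsl4 lost its calls in TPM and with no limit on low values (for miR-451a also in a fit of 2 groups). Acaa1a lost its calls under median centring (log2 fold change 0.15 and 0.11), under quantile normalization (0.25 and 0.22) and with no limit on low values (0.28 and 0.25). On leaving out 1 sample, the number higher was 5 to 7 with miR-144 and 5 to 6 with miR-451a, and the number lower 14 to 16 in both. Without control replicate 2, 3 or 4 the fit tested 30 genes, since Ehhadh then reached 1 FPKM, and it is counted in the 7. With a limit of 5 FPKM, where fewer genes were tested, the number higher was 11 in both comparisons for other oxidation enzymes, 8 and 9 for PPAR partners and 0 in both for synthesis. Without counts, the precision of low genes could not be derived from depth.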
